A study of Mus musculus with 9 samples.

Results

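Lysosomal degradation genes were followed in endothelial cells sorted from mouse liver, as a list of 39 genes for lysosomal proteases, glycosidases, sulfatases, lipid-handling proteins, membrane proteins and 1 enzyme of their sorting. They were chosen by symbol from the 52636 genes of the deposited count table. The rule names the genes and no measured value, but earlier results of these data were known when members and lists were chosen. All 39 were matched to a row and all 39 passed the filter on low counts. The study compared 4 control libraries labelled wild type with 5 libraries labelled as a double knockout of Erg and Fli1, a pair of ETS-family regulators of endothelial identity. Per the labels, tamoxifen was given to induce deletion, livers were taken at day 7 after it, and the treatment is written for controls as well as for the other group. Live cells without CD45 and with CD31 that had bound a VE-cadherin antibody given in vivo were sorted, and polyadenylated RNA was sequenced. The sources used here do not give the Cre driver, the deleted exons, the age of the animals or whether each library came from its own mouse, so p-values measure the spread between libraries, which may be technical. The comparison asks whether transcripts for degradation moved together with those of the receptors that feed material into the cell.

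Lysosomes are acidic organelles in which hydrolases break down proteins, glycans and lipids delivered by endocytosis and autophagy. Most of the soluble enzymes receive a mannose 6-phosphate tag in the Golgi and are carried to the organelle by receptors for that tag, a proton pump (the V-ATPase) acidifies it, and factors of the MiT/TFE family (such as TFEB) drive many of the genes. Sinusoidal endothelial cells of the liver clear waste macromolecules from blood through scavenger receptors and carry much of the liver's capacity to degrade them.

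Libraries held 26791371 to 36401682 counts. Values are CPM (counts scaled to a common library total) after TMM scaling, which adjusts those totals for differences in composition, given as mean ± SD (n = 4 controls, n = 5 knockout-labelled libraries), and per-library values are listed in replicate order. Erg fell from 311 ± 17.8 to 143 ± 10.9 CPM and Fli1 rose from 100.1 ± 8.01 to 147 ± 22.5 CPM (edgeR adjusted p = 2.61e-05 and 0.00636), so the second group is named by its label throughout. The endothelial genes Cdh5 and Pecam1 lay at 2189 ± 113 CPM in controls and 2156 ± 193 CPM in the knockout-labelled group, and at 1481 ± 97.8 CPM in controls and 1407 ± 164 CPM in the other group. Of 8 endothelial markers, the receptor genes Tie1 and Tek fell (from 1214 ± 34.1 to 600.1 ± 57.5 CPM and from 916 ± 57.5 to 604 ± 138 CPM, edgeR adjusted p = 0.000113 and 0.0218), and the other 6 were not past the threshold. Markers of macrophages and Kupffer cells, which are rich in lysosomes, summed to 221 to 646 CPM over 17 genes in controls and 167 to 894 CPM in the knockout-labelled libraries, and 0 of the 17 were called by edgeR, DESeq2 or limma-voom. None of the 17 had an unadjusted edgeR p under 0.05, where 40.7% of all genes had one. Their log2 SE was often wide (0.79 for Clec4f and 0.60 for Cd5l, but 0.18 for Fcer1g), so a difference in these cells could go uncalled. With a term for sex in the edgeR fit, 1 of the 17 was called higher. Replicates 2 and 3 of the knockout-labelled group stood apart from the other 3 in Cd63 below and in the endothelial gene Kdr (2858 and 3157 CPM against 5052, 4916 and 5335 CPM). Values without both are given for some of the results below. In sorted bulk cells, fewer cells of a type and less RNA per cell cannot be told apart.

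The lysosomal genes moved in both directions. Of the 39, 8 were higher and 8 lower in the knockout-labelled libraries at an adjusted p under 0.05 (edgeR quasi-likelihood test fitted on 14583 genes), which is 41.0% of them, against 29.3% of all genes tested. Each direction held 20.5% of the members, where 14.5% of all genes were called higher and 14.8% lower. The median log2 fold change of the 39 was -0.06 (from -1.34 to 2.74), beside 0.01 over all genes. For 7 members every knockout-labelled library was above every control, and for 9 every one was below. The same was so of 13.2% and 13.8% of all genes. Without replicates 2 and 3 of the knockout-labelled group, a setting added after seeing the data, 9 members were higher and 8 lower. Leaving out control replicate 2 alone left 4 higher calls, since Ctsb, Lgmn, Galns and Cd63 then lay at edgeR adjusted p = 0.0507, 0.0647, 0.0526 and 0.0510.

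**Figure D1:**
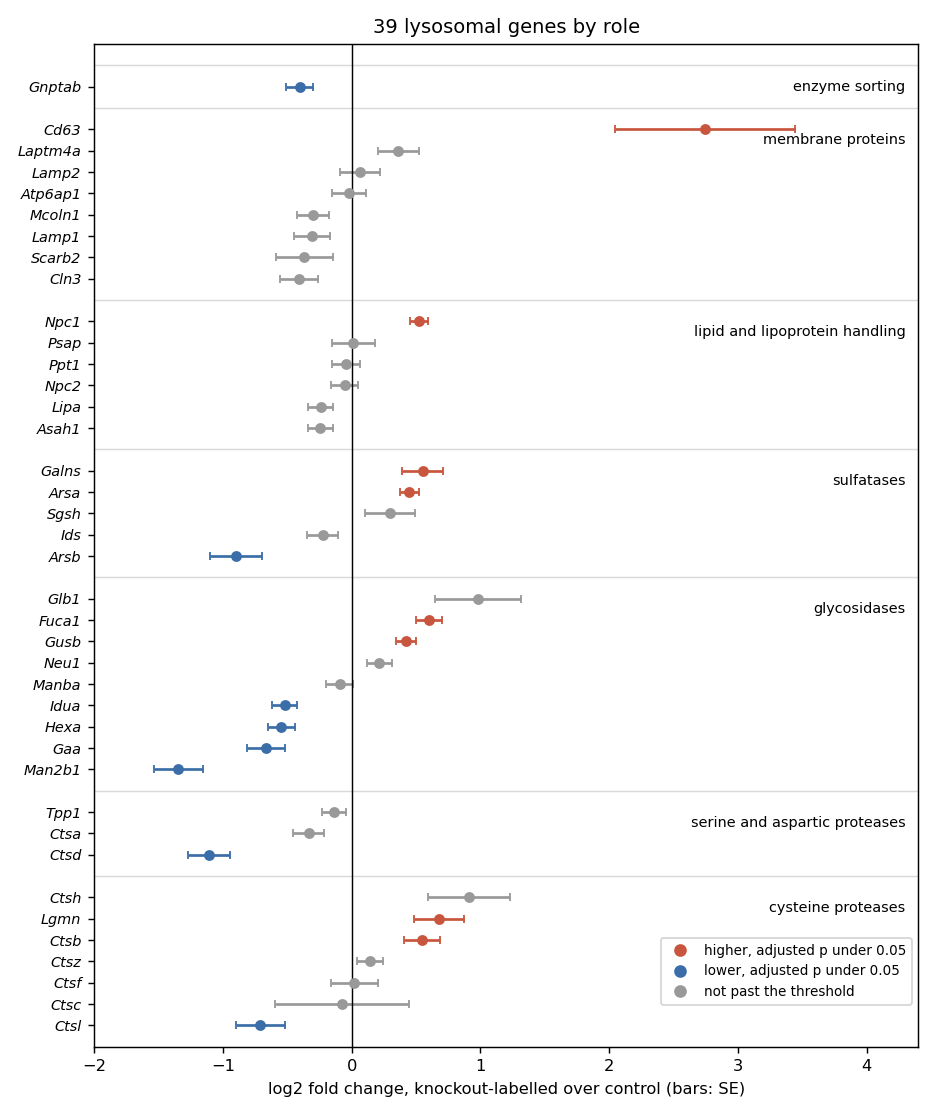
Log2 fold change of the knockout-labelled over the control libraries (horizontal axis, bars are SE) for the 39 lysosomal genes grouped by role. Proteases, glycosidases and sulfatases each hold genes called higher (red) and lower (blue), from Man2b1 at -1.34 to Cd63 at 2.74.

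The 39 genes differed widely in level. Per kilobase of exon (CPM divided by the length of the gene's merged exons), Psap was the most abundant in controls at 682 ± 82.9 CPM per kilobase. It encodes prosaposin, the precursor of the saposins that help enzymes reach sphingolipids. Lamp1 followed at 365 ± 31.6, then Laptm4a at 284 ± 25.02, Lgmn at 260.3 ± 53.4 and Ctsb at 259 ± 24.2 CPM per kilobase. Lgmn differed from both of its neighbours by less than its SD and was not separated from them. Ctsl followed at 208 ± 20.3 and Ctsd at 179 ± 14.5 CPM per kilobase, each below the gene before it by more than either SD. The ranges of mean ± SD of Ctsl and Ctsd still overlapped. At the low end lay Galns, Ctsh, Arsb and Cd63, between 3.47 and 1.14 CPM per kilobase. In the knockout-labelled group Lgmn followed Psap at 416 ± 86.1 CPM per kilobase and Ctsb came after it at 379 ± 53.6, a gap within their SD, while Ctsd moved from place 7 to place 10 and Man2b1 from 13 to 18. Merged exons include those of minor transcripts, which lowers this value for genes with long rare exons.

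Among the 7 cysteine proteases, Ctsb and Lgmn rose and Ctsl fell (42.9% called, against 29.3% of all genes tested). Ctsb (ENSMUSG00000021939, chromosome 14, 63122462 to 63145923, GRCm38) encodes cathepsin B, a protease that also trims dipeptides. Its level was 1774, 1535, 1543 and 1425 CPM in the controls and 2052, 2699, 1927, 2541 and 2241 CPM in the knockout-labelled libraries. Every library of the second group lay above every control, and the rise was 1.46-fold (log2 0.55 ± 0.14 (SE), edgeR adjusted p = 0.0150). Lgmn (ENSMUSG00000021190, chromosome 12, 102394084 to 102439813) encodes legumain, which cuts after asparagine and matures other cathepsins. It lay at 765, 619.7, 567 and 467 CPM in controls and 1128, 881, 652, 1094 and 1075 CPM in the knockout-labelled libraries. The groups overlapped there, because replicate 3 of the second group lay below the highest control, and the rise was 1.60-fold (log2 0.68 ± 0.19 (SE), edgeR adjusted p = 0.0263). That call ended on leaving out any 1 of control replicates 2, 3 and 4 or of knockout-labelled replicates 1, 4 and 5, with edgeR adjusted p up to 0.0732.

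Cathepsin L, from Ctsl (ENSMUSG00000021477, chromosome 13, 64359337 to 64370890), is a strong endopeptidase of the lysosome. Ctsl lay at 1454, 1258, 1475 and 1218 CPM in controls and 656, 1219, 658, 864 and 735 CPM in the knockout-labelled libraries. Replicate 2 of the latter lay at the level of the lowest control and the other 4 were lower than all controls, a 1.64-fold fall (log2 -0.71 ± 0.19 (SE), edgeR adjusted p = 0.0198). Its call ended without control replicate 1 or 3 (edgeR adjusted p = 0.0547 and 0.0553). The other cysteine proteases were not past the threshold. Ctsz, a carboxypeptidase, lay at 114 ± 7.00 CPM in controls and 125 ± 16.5 CPM in the other group, and Ctsf, another papain-like protease, at 21.02 ± 4.82 CPM in controls and 21.3 ± 3.79 CPM in the other group. Ctsh and Ctsc are described with the macrophage markers below.

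Ctsd had the largest fall among the proteases. It encodes cathepsin D, the main aspartic protease of lysosomes (ENSMUSG00000007891, chromosome 7, 142375911 to 142388038), and read 425, 399, 468 and 394 CPM in controls against 201, 207, 128, 242 and 200.4 CPM in the knockout-labelled libraries. The highest of the second group reached 242 CPM and the lowest control 394 CPM, a 2.16-fold difference of means (log2 -1.11 ± 0.16 (SE), edgeR adjusted p = 0.000918). The serine proteases Tpp1 and Ctsa were not past the threshold: Tpp1, which removes tripeptides from protein ends, lay at 464 ± 27.5 CPM in controls and 422 ± 34.4 CPM in the other group. Ctsa, a carboxypeptidase that also protects beta-galactosidase and neuraminidase, lay at 246 ± 30.5 CPM in controls and 195 ± 26.8 CPM in the other group without overlap between the groups (log2 -0.33 ± 0.12 (SE), edgeR adjusted p = 0.0674).

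The proportions of these proteases within each library shifted as well. The ratio of Ctsb to Ctsl CPM was 1.05 to 1.22 in the controls and 2.22 to 3.13 in the knockout-labelled libraries. The ratio of Lgmn to Ctsd CPM was 1.19 to 1.80 in controls and 4.26 to 5.62 in the second group. These pairs were chosen after their values were seen and are given without a test. A ratio of this kind shows unequal change and does not depend on the scaling of the library. Summed over the 10 proteases, the level was 4342 to 5289 CPM in controls and 4057 to 5843 CPM in the knockout-labelled libraries, which overlapped. The 7 cysteine proteases summed to 3265 to 4185 CPM in controls and 3395 to 5030 CPM in the other group, with overlap. The 3 serine and aspartic proteases summed to 1076 to 1266 CPM in controls and 663 to 930.1 CPM in the other group, without overlap. Ctsd had the largest difference of means among these 3.

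**Figure D2:**
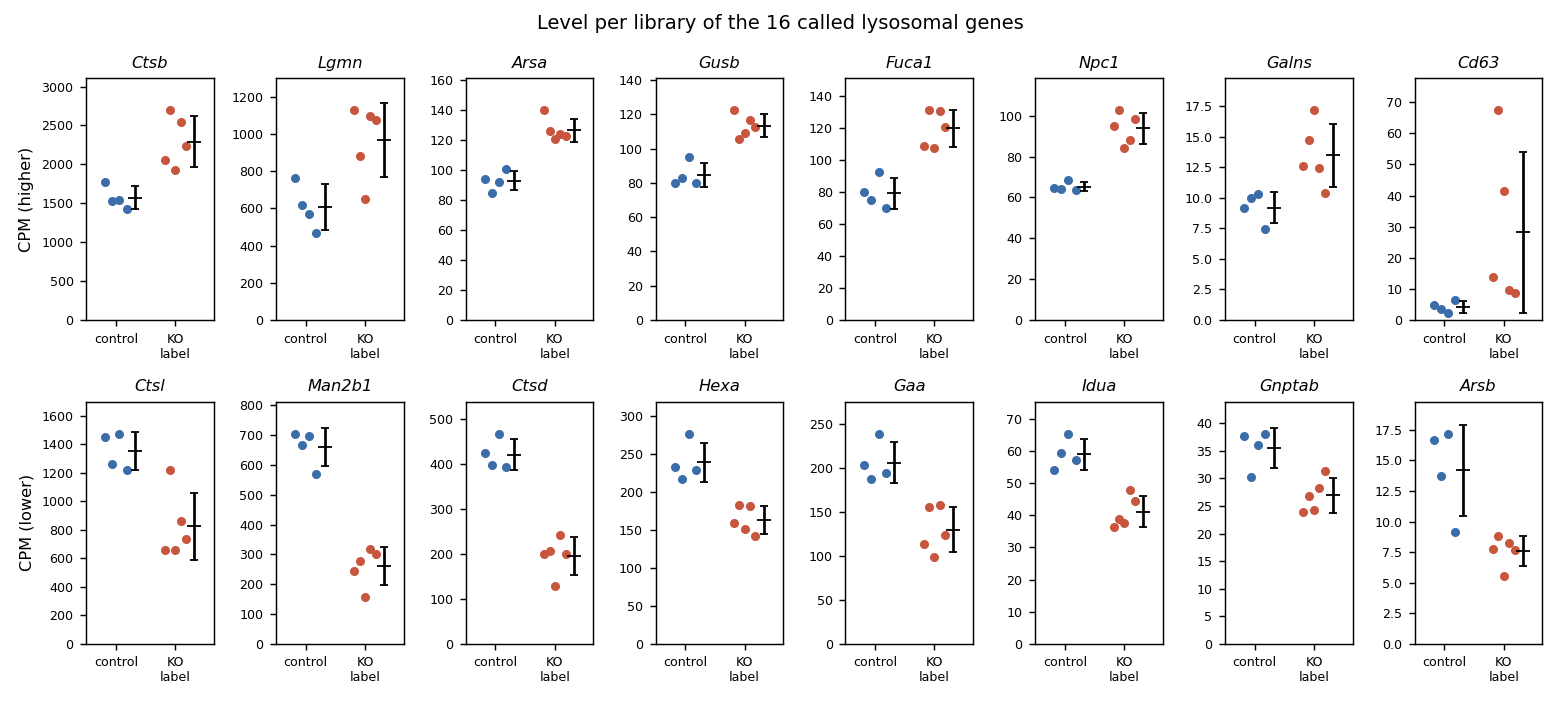
CPM in each library (points, vertical axes from 0) for the 16 lysosomal genes past the threshold, controls in blue and knockout-labelled libraries in red, with mean and SD beside them. The upper row holds the 8 higher genes and the lower row the 8 lower genes, and the groups overlap for Lgmn, Ctsl and Gnptab.

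Glycosidases, which remove sugars from glycoproteins, glycogen and glycolipids, held 4 lower and 2 higher of 9 (66.7% called, against 29.3% of all genes tested). Man2b1, lysosomal alpha-mannosidase (ENSMUSG00000005142, chromosome 8, 85083270 to 85098282), was the most abundant of them by CPM and fell furthest of the 39. It lay at 705, 667, 699 and 568 CPM in controls and 245, 278, 157, 317 and 302 CPM in the knockout-labelled libraries, so that the highest of the latter stood far below the lowest control (2.54-fold, log2 -1.34 ± 0.19 (SE), edgeR adjusted p = 0.000740). Hexa, the alpha subunit of beta-hexosaminidase that acts on GM2 ganglioside (ENSMUSG00000025232, chromosome 9, 59539540 to 59565109), read 233, 218, 277 and 228 CPM in controls and 159, 183, 151, 182 and 143 CPM in the second group (log2 -0.55 ± 0.11 (SE), edgeR adjusted p = 0.00404). Gaa, acid alpha-glucosidase that degrades glycogen (ENSMUSG00000025579, chromosome 11, 119267887 to 119285454), fell from 207 ± 22.9 to 130.1 ± 25.9 CPM (log2 -0.67 ± 0.15 (SE), edgeR adjusted p = 0.00773). Idua, alpha-L-iduronidase of heparan and dermatan sulfate breakdown (ENSMUSG00000033540, chromosome 5, 108660331 to 108684557), fell from 59.0 ± 4.78 to 41.1 ± 4.89 CPM (log2 -0.52 ± 0.10 (SE), edgeR adjusted p = 0.00351). None of these 4 genes overlapped between the groups.

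The 2 glycosidase genes that rose were Fuca1 and Gusb. Fuca1, alpha-L-fucosidase (ENSMUSG00000028673, chromosome 4, 135920735 to 135940311), lay at 79.8, 75.0, 92.2 and 69.7 CPM in controls and 109, 131, 108, 131 and 121 CPM in the knockout-labelled libraries (log2 0.60 ± 0.10 (SE), edgeR adjusted p = 0.00213). Gusb, beta-glucuronidase (ENSMUSG00000025534, chromosome 5, 129989011 to 130003049), lay at 80.1, 83.0, 95.2 and 80.0 CPM and 123, 106, 109, 117 and 113 CPM (log2 0.42 ± 0.08 (SE), edgeR adjusted p = 0.00286). Both were above every control in all 5 libraries. The ratio of Hexa to Fuca1 CPM, picked after seeing the values, went from 2.90 to 3.28 in controls to between 1.18 and 1.47 in the second group. Glb1, beta-galactosidase, had a higher mean in the knockout-labelled group (47.0, 40.2, 37.5 and 48.4 CPM against 88.1, 101, 138, 66.1 and 33.4 CPM) but was not past the threshold (edgeR adjusted p = 0.0518), with replicate 5 below every control. Without that library its log2 difference was 1.19 (edgeR adjusted p = 0.00417), and without replicates 2 and 3 it was 0.54 (edgeR adjusted p = 0.200). Neu1, the neuraminidase, lay at 94.9 ± 5.05 CPM in controls and 110.2 ± 14.2 CPM in the other group. Summed over the 9 glycosidases the level was 1435 to 1708 CPM in controls and 988 to 1235 CPM in the knockout-labelled libraries, which did not overlap. Most of that difference was that of Man2b1. The mean sum went from 1566 to 1116 CPM, and Man2b1 alone from 660.1 to 259.9 CPM. Manba, beta-mannosidase, lay at 99.2 ± 10.4 CPM in controls and 93.1 ± 10.6 CPM in the other group.

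Sulfatases, which strip sulfate from glycosaminoglycans and sulfolipids, also went both ways. Of 5, 2 were higher and 1 lower (60.0% called, against 29.3% of all genes tested). Arsa, arylsulfatase A of sulfatide breakdown (ENSMUSG00000022620, chromosome 15, 89472476 to 89477425), lay at 94.0, 84.9, 91.7 and 100.3 CPM in controls and 139.9, 126, 121, 124 and 122 CPM in the knockout-labelled libraries (log2 0.45 ± 0.07 (SE), edgeR adjusted p = 0.00174). Its exons share 690 bases with C230037L18Rik on the other strand, whose own log2 difference was 0.73 (edgeR adjusted p = 0.00646). The sources used here do not say whether counting used strand, so reads of this pair cannot be told apart. Galns, which acts on keratan and chondroitin sulfate (ENSMUSG00000015027, chromosome 8, 122578242 to 122611463), rose from 9.20 ± 1.28 to 13.5 ± 2.57 CPM (log2 0.55 ± 0.16 (SE), edgeR adjusted p = 0.0278). The Galns call ended without control replicate 1, 2 or 4 or knockout-labelled replicate 2, and its log2 difference was 0.37 without replicates 2 and 3. Arsb, arylsulfatase B of dermatan sulfate breakdown (ENSMUSG00000042082, chromosome 13, 93771630 to 93943016), fell from 16.7, 13.7, 17.2 and 9.12 CPM to 7.79, 8.78, 5.56, 8.24 and 7.71 CPM in the respective libraries (log2 -0.90 ± 0.20 (SE), edgeR adjusted p = 0.00834), control replicate 4 being close to the highest of the second group. Ids and Sgsh, 2 enzymes of heparan sulfate breakdown, were not past the threshold, with Ids at 76.9 ± 2.80 CPM in controls and 65.9 ± 11.1 CPM in the other group and Sgsh at 62.8 ± 3.05 CPM in controls and 77.1 ± 21.6 CPM in the other group. Without knockout-labelled replicate 3, which was the lowest for Sgsh, that gene's log2 difference was 0.43 (edgeR adjusted p = 0.0382), and without replicates 2 and 3 together it was 0.56 (0.000804).

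Of the 6 genes of lipid handling, Npc1 rose and the other 5 were not past the threshold (16.7% called, against 29.3% of all genes tested). Npc1 (ENSMUSG00000024413, chromosome 18, 12189692 to 12236400) encodes the membrane protein that exports cholesterol from the lysosome. It lay at 64.7, 64.2, 68.7 and 63.5 CPM in controls and 95.2, 103, 84.4, 88.2 and 98.3 CPM in the knockout-labelled libraries with every one of the latter above every control (log2 0.52 ± 0.07 (SE), edgeR adjusted p = 0.000725). Its soluble partner Npc2, which hands cholesterol to it, lay at 149.8 ± 14.4 CPM in controls and 144 ± 16.5 CPM in the other group (log2 -0.06 ± 0.10 (SE)). Psap lay at 1870.1 ± 227 CPM in controls and 1888 ± 357 CPM in the other group (log2 0.01 ± 0.17 (SE)). Asah1, acid ceramidase, and Lipa, acid lipase for cholesteryl esters, had lower means without overlap between groups but missed the threshold (log2 -0.24 ± 0.10 (SE) and -0.24 ± 0.10 (SE), edgeR adjusted p = 0.0862 and 0.0856). Ppt1, which removes palmitate from proteins, lay at 116 ± 7.62 CPM in controls and 113 ± 16.4 CPM in the other group.

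Of 8 lysosomal membrane protein genes, 1 passed the threshold (12.5%, against 29.3% of all genes). The abundant glycoproteins that line the membrane gave log2 differences of -0.31 ± 0.14 (SE) for Lamp1 and 0.07 ± 0.16 (SE) for Lamp2, with CPM of 1022, 936, 1068 and 880.0 in controls and 875, 732, 602, 957 and 777 in the knockout-labelled libraries for Lamp1. Laptm4a, a small transmembrane protein, lay at 504 ± 44.4 CPM in controls and 649 ± 127 CPM in the other group, replicate 3 of the second group being lower than all other libraries. Without that replicate its log2 difference was 0.48 (edgeR adjusted p = 0.00643). Laptm4a also passed the threshold without replicates 2 and 3 together. Scarb2, the carrier of glucocerebrosidase, Mcoln1, a calcium channel, Cln3 and Atp6ap1, an accessory subunit of the proton pump, had log2 differences from -0.41 to -0.02 and were not past the threshold. Scarb2 was lowest in knockout-labelled replicates 2 and 3 (338 and 329 CPM) and lay at 568, 644 and 491 CPM in the other 3. Cln3, linked to juvenile neuronal ceroid lipofuscinosis, had a log2 difference of -0.50 without replicate 2 (edgeR adjusted p = 0.0198). Cln3 also passed the threshold by DESeq2 and without replicates 2 and 3 together.

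The tetraspanin gene Cd63 (ENSMUSG00000025351, chromosome 10, 128900989 to 128912822) was the membrane protein gene that passed. It lay at 4.68, 3.46, 2.20 and 6.49 CPM in controls and 13.7, 67.5, 41.5, 9.64 and 8.54 CPM in the knockout-labelled libraries. Replicates 2 and 3 stood far above the other 3, which were still above every control (log2 2.74 ± 0.70 (SE), edgeR adjusted p = 0.0161). Without replicates 2 and 3 the log2 difference was 1.34 (edgeR adjusted p = 0.0177), without replicate 2 alone 2.13, and limma-voom gave an adjusted p of 0.0672. The absolute level is uncertain, because 73.2% of the longest coding transcript of Cd63 matches the pseudogene Cd63-ps at 98.5% identity, and how reads that fit both were counted is not given in the sources used. Over all 9 libraries, 5240 counts went to Cd63 and 82 to Cd63-ps.

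Gnptab, the enzyme that starts the mannose 6-phosphate tag on hydrolases (ENSMUSG00000035311, chromosome 10, 88379132 to 88447329), was lower in the knockout-labelled group. It lay at 37.7, 30.3, 36.2 and 38.1 CPM in controls and 23.9, 26.8, 24.2, 28.3 and 31.4 CPM in the other libraries (log2 -0.40 ± 0.10 (SE), edgeR adjusted p = 0.0174), and replicate 5 exceeded the lowest control. Its call ended without control replicate 1 (edgeR adjusted p = 0.0518) and without knockout-labelled replicates 2 and 3 together (0.0596). In the list of other tagging and sorting genes, 6 of 13 were lower and 0 higher by edgeR (with DESeq2, 6 were lower and 2 higher, and with limma-voom 6 and 0), 46.2% lower where 14.8% of all genes were lower, with a median log2 fold change of -0.26. Gga2, an adaptor that loads tagged enzymes into vesicles at the Golgi, fell from 42.0 ± 5.23 to 18.5 ± 1.69 CPM (log2 -1.18 ± 0.10 (SE), edgeR adjusted p = 5.84e-05). The cation-dependent receptor gene M6pr fell from 135 ± 8.09 to 113 ± 8.86 CPM (log2 -0.26 ± 0.08 (SE)), and Vps29 and Vps26a, subunits of the retromer that recycles receptors, fell by 0.29 and 0.26 on the log2 scale. The count of lower genes was 2 without control replicate 3 or without a count filter, 3 without knockout-labelled replicate 1, without knockout-labelled replicates 2 and 3 together, or with library totals alone as the scaling, where 3 were higher.

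Promoters of the list were read for the sequence that MiT/TFE factors prefer, TCACGTG, which extends the E-box CACGTG by 1 base. RefSeq windows of 300 bases (250 before to 50 after a start site, GRCm38.p6) covered 34 of the 39 genes in 38 windows, and Ctsb, Ctsh, Galns, Npc1 and Asah1 had none. On either strand TCACGTG was in 10 of 38 windows (26.3%), where 3.77% of all 32851 windows hold it, and CACGTG, which includes those matches, was in 12 (31.6% against 7.15%). Windows with TCACGTG belonged to 2 genes called higher (Lgmn and Arsa), 2 called lower (Ctsd and Gaa) and 6 not past the threshold, among them Lamp1. The ETS cores CCGGAAG and AGGAAG were in 5 and 11 of the 38 windows (13.2% and 28.9%, against 8.86% and 35.4% of all windows). A match describes letters in a window and is not evidence of binding. Of the stretches printed below, those of Lgmn and Ctsd lie wholly inside the gene coordinates given above, whose 5′ ends are further upstream. The stretches of 100 bases that follow, 5′ to 3′ on the strand of each gene and ending before the RefSeq start site, show where TCACGTG or its reverse complement (in capitals) lies in the genes that rose, the genes that fell and Lamp1, which carries 4 copies.
Lgmn, chr12:102439093-102439192, minus strand, rose: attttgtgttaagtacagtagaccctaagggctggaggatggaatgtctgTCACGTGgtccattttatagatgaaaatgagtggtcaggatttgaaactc
Arsa, chr15:89477425-89477524, minus strand, rose: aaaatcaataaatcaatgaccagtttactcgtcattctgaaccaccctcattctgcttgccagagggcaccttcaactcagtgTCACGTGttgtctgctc
Ctsd, chr7:142387873-142387972, minus strand, fell: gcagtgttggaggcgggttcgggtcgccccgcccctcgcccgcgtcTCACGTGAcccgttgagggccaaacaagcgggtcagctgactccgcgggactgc
Gaa, chr11:119267775-119267874, plus strand, fell: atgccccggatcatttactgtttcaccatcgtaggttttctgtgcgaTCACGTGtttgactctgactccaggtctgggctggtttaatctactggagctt
Lamp1, chr8:13159061-13159160, plus strand, not past the threshold: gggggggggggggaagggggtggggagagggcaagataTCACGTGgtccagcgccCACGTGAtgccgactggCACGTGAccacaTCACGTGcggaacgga

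The MiT/TFE factors themselves and the nutrient-sensing machinery on the lysosome held 1 higher and 1 lower gene of 16 tested (12.5% called, where 29.3% of all genes were). The lower count was 0 without control replicate 3 and 2 without knockout-labelled replicate 4 or 5. Tfe3 rose from 107 ± 5.55 to 132 ± 7.40 CPM (log2 0.31 ± 0.07 (SE), edgeR adjusted p = 0.00835), and Fnip1, partner of folliculin in the control of these factors, fell from 79.2 ± 8.52 to 57.1 ± 9.01 CPM (log2 -0.47 ± 0.13 (SE), edgeR adjusted p = 0.0199). Tfec and Mitf, the next by p, were not past the threshold (log2 -0.69 ± 0.25 (SE) and -0.58 ± 0.26 (SE)). Other lysosomal enzymes and cofactors held 2 higher and 8 lower of 32 (31.2% called, near the 29.3% of all genes). Hyal2, a hyaluronidase anchored at the cell surface, fell from 404 ± 60.6 to 129.6 ± 36.6 CPM, the carboxypeptidase gene Prcp from 82.9 ± 25.5 to 30.7 ± 5.68 CPM and the acid nuclease gene Dnase2a from 26.1 ± 2.85 to 13.1 ± 3.35 CPM (edgeR adjusted p = 0.000640, 0.00128 and 0.00310), while the sulfatase gene Arsg rose from 7.38 ± 1.44 to 17.0 ± 3.83 CPM (edgeR adjusted p = 0.00199). Without replicate 3 of the knockout-labelled group 7 were higher in that list, and without replicates 2 and 3 together 10 were higher and 8 lower.

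V-ATPase subunits held 2 lower and 0 higher of 15 by edgeR and limma-voom (3 and 0 by DESeq2), led by Atp6v1g1 (log2 -0.58 ± 0.11 (SE)) and Atp6v1a (log2 -0.22 ± 0.06 (SE)), 13.3% against 29.3% of all genes in either direction. The lower count was 1 without control replicate 1, without knockout-labelled replicates 2 and 3 together, with library totals alone or without a count filter. Other lysosomal membrane proteins held 4 higher and 3 lower of 20 (35% called, against 29.3% of all genes), and 1 was lower on leaving out control replicate 2, control replicate 3 or knockout-labelled replicate 1. Their sum was higher without overlap, at 1368 to 1475 CPM in controls and 1596 to 1675 CPM in the knockout-labelled libraries. Tpcn1, an endolysosomal cation channel, rose from 123 ± 3.39 to 267 ± 59.5 CPM, Litaf, an endosomal membrane protein, from 85.8 ± 10.2 to 210.2 ± 91.8 CPM, and Sidt2, which has been linked to nucleic acid uptake into lysosomes, from 108 ± 4.92 to 149.9 ± 8.40 CPM (edgeR adjusted p = 0.000704, 0.00906 and 0.000842). Laptm4b, a relative of Laptm4a, fell from 54.9 ± 4.80 to 22.1 ± 3.27 CPM (log2 -1.31 ± 0.11 (SE), edgeR adjusted p = 5.84e-05). Laptm4a itself had a log2 difference of 0.36 ± 0.16 (SE).

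**Figure D3:**
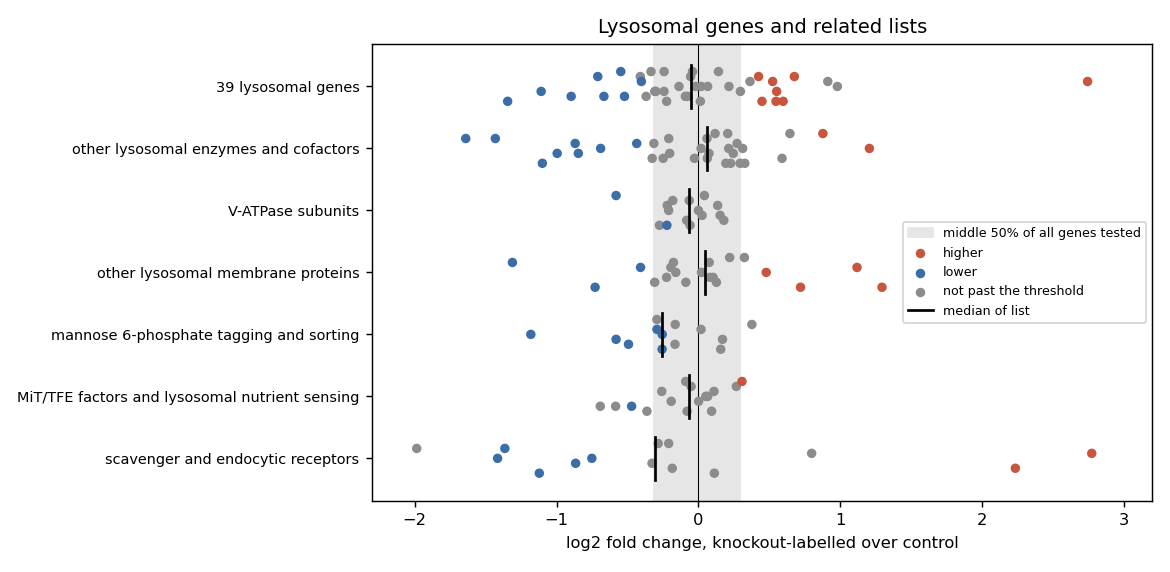
Log2 fold change (horizontal axis) of each tested gene in the lysosomal list and 6 related lists, with the list median as a black bar and the middle 50% of all genes tested in grey. The tagging and sorting list and the receptor list have the lowest medians (-0.26 and -0.31), and the 39 lysosomal genes spread to both sides.

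Set beside the receptors that feed the lysosome, the summed level of the 39 genes was 11379 to 13772 CPM in controls and 9669 to 14129.7 CPM in the knockout-labelled libraries, and the ratio of the mean sums was 0.974. The sum over 14 scavenger and endocytic receptor genes was 20757 to 21655 CPM in controls and 10432 to 15951 CPM in the second group, with a ratio of 0.630 and no overlap. Sums are led by the most abundant genes, Psap, Ctsb and Ctsl in the first and Stab1 and Stab2 in the second. The median log2 fold change of the 14 receptor genes was -0.31, and 7 of them were not past the threshold. Of the 14 receptors 5 were lower and 2 higher, 35.7% and 14.3% where 14.8% and 14.5% of all genes were. Without knockout-labelled replicates 2 and 3 together, 7 were lower and 2 higher. Stab1 fell by 1.36, Scarf1 by 0.75 and Msr1 by 1.12 on the log2 scale, and Scarf2 rose from 7.04 ± 3.78 to 48.1 ± 21.1 CPM. The difference between the 2 lists was not tested. The members' sum was lowest in knockout-labelled replicate 3 (9669 CPM) and highest in replicate 4 (14129.7 CPM), the range within that group being wider than the difference between the group means.

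**Figure D4:**
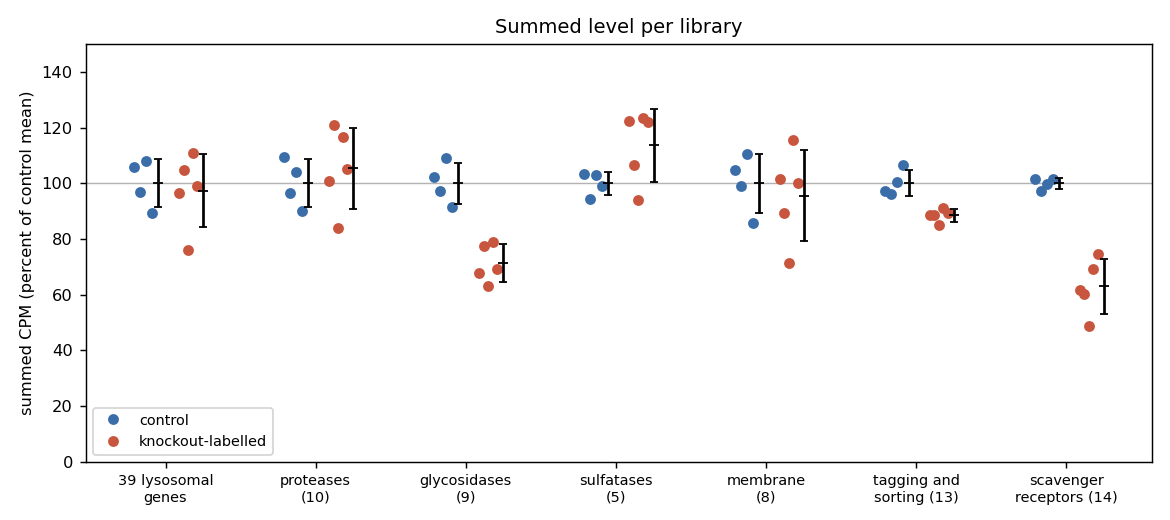
Summed CPM per library as a percent of the control mean (vertical axis, from 0) for the lysosomal genes, 4 of their role classes, tagging and sorting genes and scavenger receptors, with mean and SD beside the points. Of the sums drawn, those of glycosidases, tagging and sorting genes and scavenger receptors are lower without overlap. The sums of the 39 genes, proteases, sulfatases and membrane proteins overlap between the groups. Most of the glycosidase difference is that of Man2b1.

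Ctsc varied within both groups alongside the macrophage markers. Ctsh was high in 2 libraries where they were high, and above every control in knockout-labelled replicate 3, where they were low. Ctsc, cathepsin C that activates granule proteases of leukocytes, lay at 35.7, 17.2, 11.3 and 18.6 CPM in controls and 32.6, 35.1, 11.1, 12.9 and 6.31 CPM in the knockout-labelled libraries (log2 -0.08 ± 0.52 (SE)). The macrophage sum was 646, 391, 221 and 386 CPM and 526, 894, 179.7, 312 and 167 CPM in the same order, so that control replicate 1 and knockout-labelled replicates 1 and 2 were the 3 highest in both. Ctsh, an aminopeptidase, lay at 14.9, 12.6, 12.7 and 17.3 CPM and 36.6, 42.2, 26.01, 14.6 and 15.9 CPM (log2 0.91 ± 0.32 (SE), edgeR adjusted p = 0.0560), its highest libraries being knockout-labelled replicates 1 and 2, while its 4 controls lay close together across their range of macrophage sums. Knockout-labelled replicate 3 was next at 26.01 CPM, with a macrophage sum of 179.7 CPM. Of the 17 macrophage markers, Cd5l (67.1 and 78.7 CPM), Fcer1g (51.6 and 47.9 CPM) and Clec4f (41.6 and 48.1 CPM) had the highest group means, none was at 0 in all libraries, and their part in Ctsc and Ctsh was not tested. Ctsb was highest in control replicate 1 (1774 CPM) and knockout-labelled replicate 2 (2699 CPM), the libraries with the highest macrophage sum of their groups. Knockout-labelled replicate 4 came next at 2541 CPM, with a macrophage sum of 312 CPM. The part of macrophages in Ctsb was not tested.

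**Figure D5:**
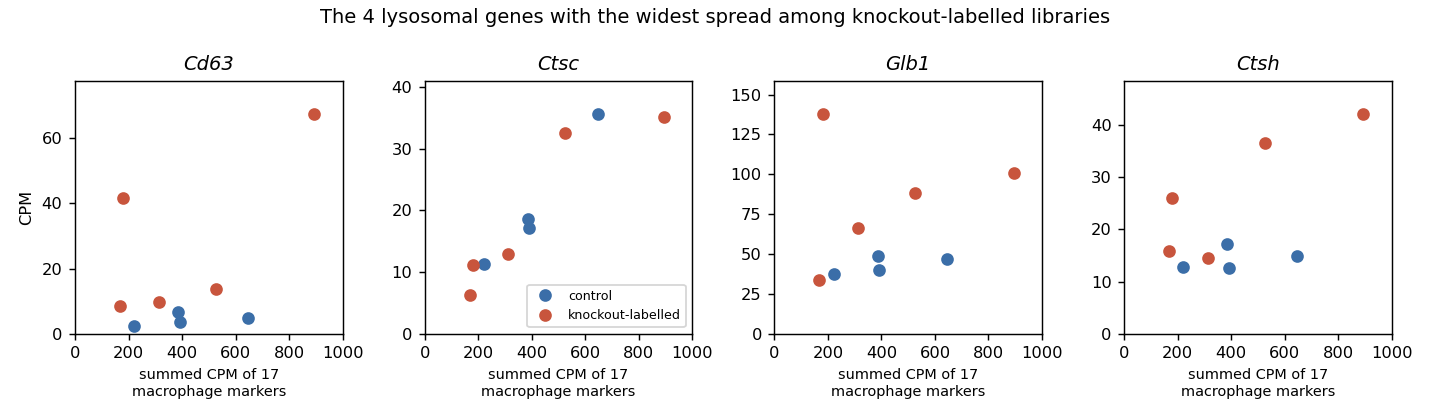
CPM (vertical axes, from 0) of the 4 lysosomal genes with the widest relative spread among knockout-labelled libraries against the summed CPM of 17 macrophage markers (horizontal axis), 1 point per library. Ctsc is high where the macrophage sum is high in either group, while Glb1 and Cd63 are highest in knockout-labelled replicates 2 and 3, whose macrophage sums are 894 and 179.7 CPM. Glb1 is also above every control in knockout-labelled replicates 1 and 4 (88.1 and 66.1 CPM).

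Markers of other cells gave low sums. Hepatocyte markers summed to 159 to 381 CPM in controls and 19.7 to 213 CPM in the knockout-labelled libraries. By edgeR 0 of 10 were past the threshold and 4 had an unadjusted p under 0.05, where 40.7% of all genes had one. DESeq2 called 4 lower and limma-voom called 2 lower. Stellate cell and fibroblast markers summed to 94.3 to 165 and 172 to 363 CPM, led by Ecm1 (from 116 ± 31.5 to 279 ± 77.6 CPM), the 1 called gene of 7 tested (14.3%, against 29.3% of all genes). The median log2 fold change of these 7 was 0.08, from -1.72 for Lrat to 1.27 for Ecm1, and the genes other than Ecm1 had group means of at most 3.95 CPM (Dcn). Platelet and erythroid markers summed to 18.9 to 30.3 and 37.1 to 75.4 CPM, with 3 of 6 higher, led by Pf4 (from 2.76 ± 0.642 to 24.7 ± 3.18 CPM). Lymphocyte and cholangiocyte markers summed to at most 6.44 and 3.45 CPM in any library. The part of these cells in the lysosomal genes was not tested.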

How the data were processed

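Raw counts per Ensembl gene were deposited by the authors as 1 table of 52636 rows and 9 columns, matched to samples by their descriptions. FastQC 0.11.5, STAR 2.7.6a and GRCm38 are named per the submitters' processing notes; the counting program, annotation release, strand setting and the kit behind each library (2 TruSeq kits, 1 unstranded and 1 stranded, are in the labels) are not given in the sources used. Symbols, exons and coordinates came from GENCODE M21 (GRCm38), which named 52403 rows.

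Genes were filtered with filterByExpr (minimum count 10, minimum total 15), which left 14583. After TMM scaling, the quasi-likelihood test of edgeR 4.0.16 (R 4.3.3, robust glmQLFit, no covariate) was applied, and p was adjusted by Benjamini-Hochberg over these genes (threshold 0.05). CPM used library totals times TMM factors, at which 1 count was worth 0.0260 to 0.0368 CPM. Every member had at least 70 counts in each library. The test was checked on simulated counts.

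Alternatives were DESeq2 1.42.0, voom of limma 3.58.1, 3 other scalings, 2 other filters, a replicate block and the omission of each library in turn. Added after seeing the data were a term for sex (read from Xist and Ddx3y, 1 female and 3 male controls, 3 female and 2 male knockout-labelled libraries) and the omission of knockout-labelled replicates 2 and 3 together. Members and lists were chosen with earlier results of these data known. Members past the threshold, up to 2 others per role with the highest control CPM per kilobase and up to 4 genes per related list with the smallest p are named, besides some picked for their values. Of the 39 members, 16 share exon bases with another annotated gene, 14 of them on the other strand.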

Additional observations from a re-analysis of the deposited data

Results flagged for a closer look

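In 7 of 124 groups of values checked, 1 library stood apart from the rest of its group by more than Dixon's limit at the 95% level, about as many as chance gives (1 in 20). Control replicate 3 was high for Ctsa (292 CPM, the others between 229 and 234 CPM), for Tpp1 (505 CPM, the others between 448 and 453 CPM) and for the summed serine and aspartic proteases that hold both (1266 CPM, the others between 1076 and 1104 CPM). Control replicate 4 was high for Neu1 (102 CPM, the others between 91.8 and 93.5 CPM) and low for Scarb2 (449.7 CPM, the others between 644 and 682 CPM). Knockout-labelled replicate 1 was high for Arsa (139.9 CPM, the others between 121 and 126 CPM), and replicate 3 low for Laptm4a (430.4 CPM, the others between 671 and 751 CPM).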

How the results depend on the processing

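Over 19 alternative settings, 8 of the 16 called lysosomal genes kept their call in every one (Ctsd, Hexa, Gusb, Idua, Man2b1, Fuca1, Arsa and Npc1), and the other 8 lost it in at least 1. No called member changed sign in these settings. Of 23 uncalled members, 8 passed the threshold in at least 1 setting and 8 changed sign in at least 1 while uncalled. Leaving out 1 library gave 4 to 10 members higher, 7 to 9 lower, 3086 to 3999 genes called in all and 24 to 37 genes of the related lists. Same-numbered libraries deviated from their group means with correlations from -0.35 to 0.25, so the numbers were not taken to pair the samples. The replicate block (replicates 1 to 4) gave 5 members lower, 6 higher, 2658 genes called in all and 23 genes of the related lists (1 lower for tagging and sorting, 1 lower for other membrane proteins, 0 higher and 2 lower for the MiT/TFE list, 1 lower for the V-ATPase). With it, 6 members called in the main fit were not called (Ctsb, Ctsl, Lgmn, Gaa, Arsb and Cd63, edgeR adjusted p from 0.0629 to 0.0909). The block fit differs from the main fit both in its term and in having fewer libraries and residual degrees of freedom. The cause of the lost calls, in this and the other settings, was not tested. DESeq2 called 10 members higher and 10 lower, and 2543 and 2486 of all 14583 genes tested. With limma-voom, 7 and 8 members and 1980 and 2279 of all genes were called, where edgeR called 2110 and 2161 of all genes. With a term for sex, which was unbalanced between the groups, 8 members were higher and 9 lower, and the Galns call was lost (edgeR adjusted p = 0.0539). Of all genes, 1895 were higher and 1945 lower with that term. Depth limits the least abundant members most: the lowest count of any member in a library was 70, for Cd63.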
